A study of Mus musculus with 48 samples.

Results

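9 transcription factors that mark or drive neural stem cells and the birth of neurons were followed: Sp8, Sox2, Sox4, Sox11, Sox21, Pax6, Emx2, Nfia and Nfib. The 9 genes were chosen by name, with earlier results of these data known. They were matched by mouse symbol among 39017 genes listed in each of 3 tables of read counts. Counts of members set against the share of all genes are therefore descriptions only. The RNA of cultured neural stem cells was sequenced in 48 libraries, 4 for each of 12 groups, with SMART-seq2, which copies whole transcripts and loses their strand. Donor mice were 7~8 weeks old, the dentate gyrus was the tissue of origin, and all cells carried Hopx-CreERT2 (a tamoxifen-inducible Cre under Hopx), both copies of a floxed Setd1a and an H2B-GFP reporter that Cre switches on. WT groups received a lentivirus for GFP and KO groups one for Cre and GFP, both under quiescence medium with BMP4 and FGF2. Untreated groups date from days 4, 5, 6 and 9, counted from the change to that medium, and the virus was added after the change. At day 7 the cells had received either DMSO, the solvent, or the compound ORY-1001 (ORY), which blocks LSD1, a histone demethylase. Either was added together with the virus. Every KO group had viral Cre and every WT group lacked it, so that the deletion, Cre itself and the reporter cannot be told apart.

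Setd1a encodes an enzyme that methylates lysine 4 of histone H3, a mark of active promoters, and LSD1 removes methyl groups from the same residue. In the dentate gyrus of the adult hippocampus, radial glia-like stem cells rest for long periods and give rise to granule neurons when they are activated. Sox2, a SoxB1 factor, maintains neural stem cells, and Sox21, a SoxB2 factor, counteracts SoxB1 activity and favours differentiation. Sox4 and Sox11, both SoxC factors, act in committed neuronal precursors. Pax6 and Emx2 are homeodomain factors that pattern the cortex and its hippocampal border and act in stem cells. Nfia and Nfib are nuclear factor I proteins that drive gliogenesis and restrain proliferation. Sp8 is a zinc-finger factor of the Sp family, known from telencephalic patterning and from interneurons of the olfactory bulb.

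The 250 bases upstream of the annotated start are shown for the 4 members on which the results turn most, with every CG dinucleotide in capitals, because writers of histone H3 lysine 4 methylation are recruited to CG-rich starts. The sequences are from RefSeq, build GRCm38.p6, 5′ to 3′ on the strand of the gene, and 8 of 9 members had an entry (Nfib had none). Sp8 has several starts, of which the first and the second are given.
Sp8, first start (chr12:118846079-118846328, plus strand): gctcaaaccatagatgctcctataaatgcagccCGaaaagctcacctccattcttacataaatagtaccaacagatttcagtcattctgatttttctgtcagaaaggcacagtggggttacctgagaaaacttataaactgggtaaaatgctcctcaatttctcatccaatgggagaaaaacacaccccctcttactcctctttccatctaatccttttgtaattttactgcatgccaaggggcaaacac
Sp8, second start (chr12:118846983-118847232, plus strand): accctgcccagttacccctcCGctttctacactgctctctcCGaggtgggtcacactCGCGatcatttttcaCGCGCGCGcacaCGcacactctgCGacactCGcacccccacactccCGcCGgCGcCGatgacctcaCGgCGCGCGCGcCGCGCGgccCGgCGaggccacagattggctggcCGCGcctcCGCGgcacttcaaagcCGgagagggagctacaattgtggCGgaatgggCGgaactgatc
Sox2 (chr3:34649745-34649994, plus strand): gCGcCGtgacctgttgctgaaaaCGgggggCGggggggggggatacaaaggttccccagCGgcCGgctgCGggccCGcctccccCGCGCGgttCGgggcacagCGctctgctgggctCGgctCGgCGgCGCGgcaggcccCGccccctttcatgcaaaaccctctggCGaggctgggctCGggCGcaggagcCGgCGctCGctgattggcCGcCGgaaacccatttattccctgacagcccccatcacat
Sox4 (chr13:28953700-28953949, minus strand): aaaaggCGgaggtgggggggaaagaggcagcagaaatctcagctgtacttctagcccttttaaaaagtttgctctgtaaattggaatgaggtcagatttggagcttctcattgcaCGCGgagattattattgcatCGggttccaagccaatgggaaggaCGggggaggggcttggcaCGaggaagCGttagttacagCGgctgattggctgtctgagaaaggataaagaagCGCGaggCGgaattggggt
Sox21 (chr14:118237031-118237280, minus strand): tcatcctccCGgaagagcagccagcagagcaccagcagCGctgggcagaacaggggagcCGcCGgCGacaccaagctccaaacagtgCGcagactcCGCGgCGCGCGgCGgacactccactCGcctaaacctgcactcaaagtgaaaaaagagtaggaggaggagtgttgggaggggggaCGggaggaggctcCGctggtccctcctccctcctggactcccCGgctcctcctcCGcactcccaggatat

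These windows differed widely in CG content. Over 32841 RefSeq starts the median window held 6 CG. The first Sp8 window held 1 CG, fewer than most, since 7.86% of windows held fewer still, whereas the second held 32, above 95.4% of windows. Sox2 held 27 (above 91.4%), Sox21 17 (above 76.5%) and Sox4 11 (above 64.4%). The motif GGGCGG, searched on both strands, occurred 2 times in Sox2, 1 time in the second Sp8 window and not in the Sox4 and Sox21 windows, against 32.7% of all windows with at least 1. Sox4 held CCAAT, on either strand, 4 times, a number reached by 0.84% of windows, while 33.9% held at least 1. A match is only a stretch of letters, and no binding was measured here.

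On GRCm38 (GENCODE vM21), Sp8 (ENSMUSG00000048562) lies on chromosome 12 from 118846329 to 118852576 on the plus strand. Sox2 (ENSMUSG00000074637, chromosome 3, 34650405 to 34652461), Sox4 (ENSMUSG00000076431, chromosome 13, 28948919 to 28953713), Sox11 (ENSMUSG00000063632, chromosome 12, 27334264 to 27342574) and Sox21 (ENSMUSG00000061517, chromosome 14, 118233232 to 118237030) have 1 exon each. Emx2 (ENSMUSG00000043969) lies on chromosome 19 from 59458372 to 59465357 and Pax6 (ENSMUSG00000027168) on chromosome 2 from 105668900 to 105697364. Nfia (ENSMUSG00000028565, 97772734 to 98118874) and Nfib (ENSMUSG00000008575, 82290173 to 82705750) share chromosome 4. Antisense genes overlap 54.6% of the exonic length of Sox4 (Gm26735, at 0 counts in all 48 libraries), 18.8% of Sox21 (Gm4675) and 8.79% of Emx2 (Emx2os). Without strand, reads from a gene and its antisense partner cannot be told apart in these stretches. The gene counts do not show whether such reads were credited to either gene or left out. The 0 of Gm26735 is therefore no measure of its expression, and the shared part of Sox4 and Sox21 may be uncounted.

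Total counts ranged from 3.14 to 20.6 M per library. On days 5, 6 and 9, libraries 1 and 3 and libraries 2 and 4 lay closest together in all 6 groups (chi-square per degree of freedom 1.83 to 2.5, against 3.03 to 9.35 for the other pairs). The reporting summary of the study calls the cultures of each group independent, while the labels only number the libraries. For the members, values with these pairs summed are given beside calls that they end. For other factors such values are not given. At day 7, libraries 1 and 2 and libraries 3 and 4 lay closest in 2 groups. These were WT + DMSO (3.80 and 2.97, against 5.95 to 8.27) and KO + ORY (2.69 and 2.83, against 4.03 to 5.47). In WT + ORY and KO + DMSO they did not. No summed values were computed for day 7. What the p-values rest on is the scatter of the numbered libraries, which may be technical. All 12 stem cell and astroglial markers were detected in every group, with sums of 11630 to 21000 CPM (counts scaled to a common library size of 1 M), while microglial markers summed to at most 7.56 and fibroblast markers to at most 1.70 CPM. Endothelial and mural markers summed to 15.3 to 71.0 CPM, oligodendrocyte lineage markers to 176 to 427 CPM and neuronal markers to 752 to 1143 CPM. Most of the neuronal sum was Map2 and Gap43 (group means of 453.5 to 611.5 and 214 to 503 CPM), while Dcx and Rbfox3, which define young and mature neurons, had group means of at most 0.138 and 0.115 CPM. Of the 12 neuronal markers, 6 to 7 had enough counts to be tested, Prox1 among them. Whether neurons were present was not tested. Setd1a was low in all groups (mean 1.63 to 3.88 CPM), and a count of all its exons is no check of the deletion.

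Per kilobase of exon, Nfia (group means of 56.1 to 159 CPM per kb), Sox2 (39.9 to 105) and Nfib (40.0 to 61.5) were the abundant members. Nfia led on days 4 and 7, whereas on day 6 Sox2 was above it in both genotypes (87.1 ± 2.6 against 69.8 ± 3.9 CPM per kb in WT, SD, n = 4). In WT on day 5 the Nfia and Nfib levels, 61.0 ± 2.8 and 61.5 ± 2.9 CPM per kb (SD, n = 4), did not differ beyond their spread. Sox21 (3.61 to 18.2), Emx2 (4.52 to 10.6), Pax6 (3.97 to 5.41), Sox4 (1.24 to 7.37) and Sp8 (0.856 to 6.90) followed with ranges that overlapped. The length used pools all annotated transcripts of a gene (26 for Pax6, 11694 bases). It also includes stretches shared with antisense genes (54.6% for Sox4), so the order of members per kb is only rough. Sox11 had 0 to 9 counts per library and group means of at most 0.0414 CPM per kb. It failed the filter on low counts in all 3 tables and no comparison of it was made, so the members tested were 8 of 9 in each table. Sp8 was the least counted of the 8, with 11 to 71 counts per library on days 5, 6 and 9.

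**Figure D1:**
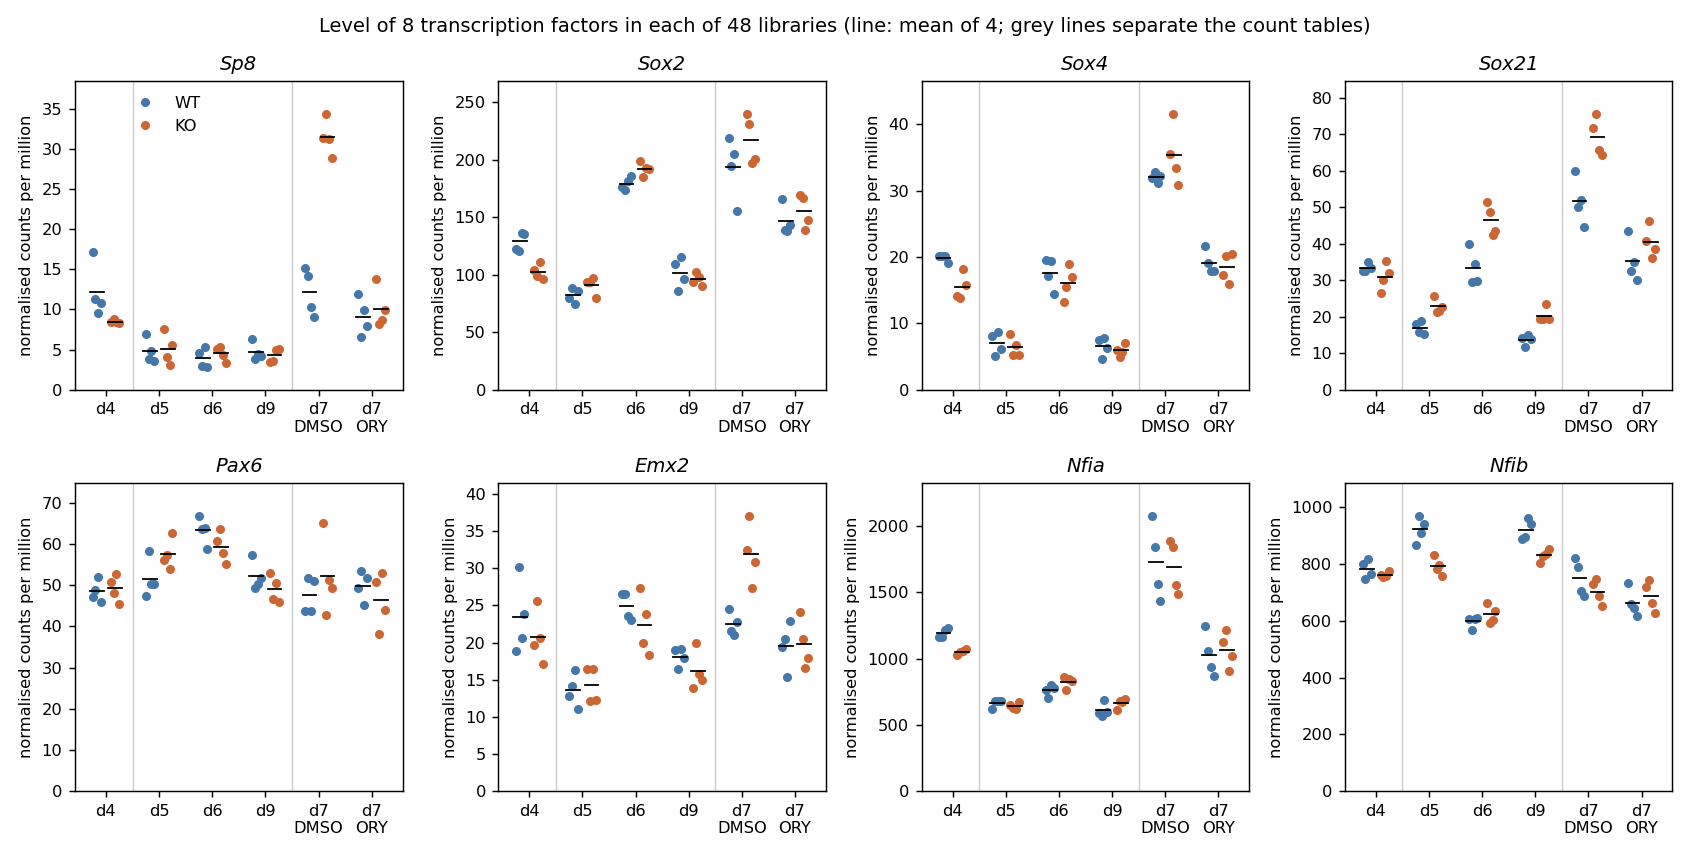
Level of each tested member in every library, in CPM of the TMM-scaled library size on a linear axis from 0 (blue WT, orange KO, black line the mean of 4 libraries, grey lines between the separately scaled tables). The 4 KO + DMSO libraries of Sp8 sit between 28.9 and 34.3, above every other library, and Sox2, Sox4 and Sox21 are higher on day 6 than on days 5 and 9 in both genotypes.

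Sp8 showed the widest gap between genotypes, and it showed it under DMSO. At day 7 the KO + DMSO libraries held 31.4, 34.3, 31.3 and 28.9 CPM and the WT + DMSO libraries 15.1, 14.2, 10.3 and 9.08 CPM. The groups did not overlap, and Sp8 rose in KO by 1.35 ± 0.17 on the log2 scale (SE, n = 4 per group, edgeR adjusted p = 4.91e-07), 2.55 times the WT level. Under ORY the KO libraries held 13.8, 8.15, 8.63 and 9.88 CPM and the WT libraries 11.9, 6.58, 9.91 and 7.96 CPM, which overlapped. The log2 difference there was 0.11 ± 0.20 (edgeR adjusted p = 0.849). ORY lowered Sp8 in KO by a log2 change of -1.66 ± 0.18 (edgeR adjusted p = 2.60e-08), and in WT the value was -0.42 ± 0.19 (edgeR adjusted p = 0.135), which passed only without WT + ORY replicate 1 (-0.59) and with the GC and length trend removed together with a replicate block (-0.51). The difference between these responses, the interaction of genotype and ORY, was itself past the threshold at -1.24 ± 0.26 (edgeR adjusted p = 0.00122). In the main fit it was past it for 1 of 8 members, Sp8, against 17.9% of all genes tested. The rise under DMSO, the fall in KO and the interaction all draw on the same KO + DMSO libraries. They are therefore not independent results. Mean Sp8 was 31.5 CPM in that group, against 12.2 in WT + DMSO, 9.09 in WT + ORY and 10.1 in KO + ORY.

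The Sp8 differences at day 7 passed whichever library was left out, with log2 values of 1.25 to 1.45 for KO against WT under DMSO and -1.40 to -1.09 for the interaction. On day 4 the KO libraries held 8.38, 8.80, 8.46 and 8.29 CPM and the WT libraries 17.2, 11.3, 9.53 and 10.8 CPM. KO lay below WT without overlap, but the log2 difference of -0.52 ± 0.20 did not pass (edgeR adjusted p = 0.247) and was -0.31 without WT replicate 1. On days 5, 6 and 9 all 24 libraries held 2.78 to 7.53 CPM of Sp8, and the genotypes overlapped. Emx2, which acts in the hippocampal primordium, was also higher in KO + DMSO (32.4, 37.0, 27.3 and 30.8 CPM) than in WT + DMSO (24.5, 21.5, 21.0 and 22.8 CPM). The log2 difference was 0.52 ± 0.13 (edgeR adjusted p = 0.00258), with no overlap. On the other days the genotypes overlapped in Emx2.

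Sox21 was the member that separated the genotypes most often. On day 5 KO held 25.7, 21.4, 21.6 and 22.8 CPM and WT 18.1, 15.8, 18.9 and 15.1 CPM. On day 6 KO held 51.4, 48.8, 42.4 and 43.6 CPM and WT 39.8, 29.5, 34.5 and 29.8 CPM. On day 9 KO held 19.3, 19.3, 23.4 and 19.3 CPM and WT 14.1, 11.8, 15.1 and 13.9 CPM. In each of these sets, and at day 7 under DMSO (KO 71.6, 75.5, 65.8 and 64.3 CPM, WT 60.0, 50.1, 51.9 and 44.5 CPM), every KO library lay above every WT library. The log2 increase in KO was 0.41 ± 0.13 on day 5, 0.47 ± 0.11 on day 6, 0.56 ± 0.13 on day 9 and 0.43 ± 0.11 under DMSO (edgeR adjusted p = 0.0224, 0.00428, 0.00249 and 0.00247). On day 4 the groups overlapped (KO 26.5 to 35.4 CPM, WT 32.4 to 35.1 CPM), and they also overlapped under ORY, where the value was 0.20 ± 0.11 (edgeR adjusted p = 0.437). Whether the effect differed between days was tested for day 9 against day 5 only, and that interaction was 0.15 ± 0.18 (edgeR adjusted p = 0.671).

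The GC content of Sox21 was 58.3%, above that of 94.1% of the genes tested on days 5, 6 and 9. With the trend of each library with GC and length removed, the day 5 value fell to 0.17 (edgeR adjusted p = 0.424), so that this call was lost, while those of days 6 and 9 and of DMSO held. The day 5 call was also lost without KO replicate 1 or 4 or WT replicate 2 or 4 (edgeR adjusted p of up to 0.0991). With libraries 1 and 3 and libraries 2 and 4 summed, the values were 0.40, 0.43 and 0.56 on days 5, 6 and 9 and none passed (edgeR adjusted p = 0.229, 0.184 and 0.116). Markers of dividing cells differed between the genotypes in opposite directions on days 6 and 9. They summed to 191 to 200 CPM in KO and 232 to 250 CPM in WT on day 6 (5 of 12 lower in KO, 0 higher), and to 528 to 619 and 463 to 491 CPM on day 9 (5 of 12 higher, 0 lower). Their part in the Sox21 values was not tested. The antisense partner Gm4675 was at 2.90 ± 1.29 CPM in KO + DMSO and 1.27 ± 0.53 CPM in WT + DMSO (SD, n = 4), and its part in that of Sox21 was not tested.

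Nfib moved the other way on 2 days. It held 832, 782, 797 and 757 CPM in KO and 866, 968, 908 and 938 CPM in WT on day 5, and 801, 827, 836 and 853 CPM in KO against 886, 893, 961 and 938 CPM in WT on day 9. No KO library reached a WT library on either day. Nfib fell in KO by 0.22 ± 0.05 on day 5 and by 0.15 ± 0.05 on day 9 on the log2 scale (edgeR adjusted p = 0.00119 and 0.0306). With summed libraries these were -0.23 and -0.145 and did not pass (edgeR adjusted p = 0.0573 and 0.293). The day 9 call was also lost without KO replicate 1, 2 or 3 or WT replicate 3 or 4 (edgeR adjusted p of up to 0.116) and with the GC and length trend removed (-0.11, edgeR adjusted p = 0.0981). On day 6 KO (591 to 662 CPM) and WT (568 to 609 CPM) overlapped.

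Sox2 and Nfia passed between the genotypes on day 4 and in no other of the 6 comparisons, although Sox2 also passed under DMSO with the GC and length trend removed (0.295, higher in KO). Sox2 held 104, 99.1, 111 and 96.7 CPM in KO and 123, 121, 137 and 135 CPM in WT, a fall by 0.33 ± 0.08 on the log2 scale (edgeR adjusted p = 0.0266). Nfia held 1024 to 1070 CPM in KO and 1165 to 1231 CPM in WT, a fall by 0.18 ± 0.04 (edgeR adjusted p = 0.0222). Neither overlapped, but each was close to the threshold. Sox2 did not pass without WT replicate 1, 3 or 4 or KO replicate 2 or 4 (edgeR adjusted p of up to 0.104), nor Nfia without WT replicate 2, 3 or 4 or KO replicate 1, 2 or 3 (up to 0.080). Sox4 also lay lower in every KO library (14.1, 13.9, 18.1 and 15.8 CPM against 20.1, 20.2, 20.1 and 19.1 CPM), and its log2 value of -0.36 ± 0.15 did not pass (edgeR adjusted p = 0.279). On day 9, Nfia was higher in KO and passed in 1 of 8 refits with a library left out. Its log2 values there were 0.083 to 0.179 (lowest edgeR adjusted p = 0.0316). Pax6 did not pass between the genotypes in any of the 6 comparisons, with group means of 46.4 to 63.3 CPM.

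Counted together, members past the threshold were 2 of 8 on day 4 (both lower in KO), against 1.59% of all genes tested. They were 2 of 8 on day 5 (1 higher, 1 lower) against 15% of genes, 1 of 8 on day 6 (higher) against 13.1%, and 2 of 8 on day 9 (1 higher, 1 lower) against 11.8%. Under DMSO at day 7 they were 3 of 8, all higher in KO, against 36% of genes. Under ORY they were 0 of 8 against 1.15%, by edgeR and by DESeq2, and 0 of 8 had an unadjusted p under 0.05. The median log2 difference of the 8 was -0.18 on day 4 and 0.16 under DMSO, where the medians of all genes tested were -0.003 and -0.015. The DMSO share depends on the processing, since 6 of 8 passed with the GC and length trend removed. As the members were chosen with earlier results of these data known, these shares only describe them. In bulk libraries, fewer cells of a type and less RNA per cell cannot be told apart. Beside the DMSO values, the 12 stem cell and astroglial markers summed to 15150 to 15410 CPM in KO and 11630 to 11870 CPM in WT (7 of 12 higher, 2 lower). The 10 oligodendrocyte lineage markers summed to 398 to 427 and 236 to 248 CPM, with 2 of 6 tested higher and 1 lower, and with 2 of 10 in KO and 3 of 10 in WT at 0. The part of these differences in the members' values was not tested.

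**Figure D2:**
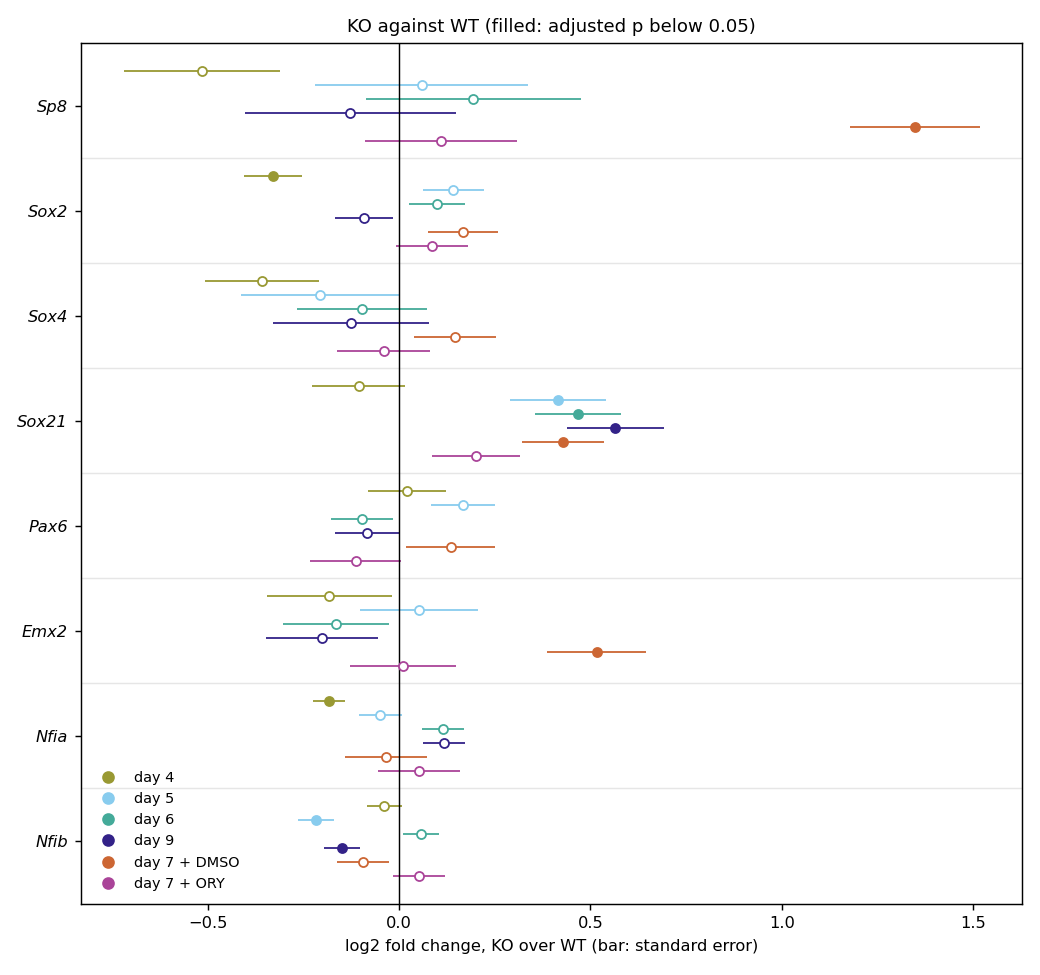
Log2 fold change of KO over WT for each tested member in the 6 comparisons (colours), with its standard error as a bar and a filled point where the adjusted p was below 0.05. Sp8 under DMSO lies at 1.35, apart from its other values, and Sox21 is filled on days 5, 6 and 9 and under DMSO at 0.41 to 0.56.

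LSD1 inhibition lowered most of these factors, and 4 of them in both genotypes. Sox4, the neuronal precursor factor, held 35.5, 41.6, 33.4 and 30.9 CPM in KO + DMSO and 17.4, 20.1, 15.9 and 20.5 CPM in KO + ORY. In WT it held 31.9, 32.9, 31.2 and 32.3 CPM under DMSO and 21.7, 19.06, 17.97 and 17.91 CPM under ORY. No ORY library reached a DMSO library, and Sox4 fell by 0.93 ± 0.11 in KO and by 0.74 ± 0.12 in WT on the log2 scale (edgeR adjusted p = 3.06e-07 and 6.77e-05). Nfia fell by 0.66 ± 0.11 in KO (1483 to 1883 CPM under DMSO, 905 to 1212 CPM under ORY) and by 0.75 ± 0.11 in WT (1436 to 2074 and 871 to 1243 CPM). Its edgeR adjusted p was 1.82e-05 and 2.55e-05, and the groups were apart in both genotypes.

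Sox21 was also lower under ORY, at 40.8, 46.2, 36.1 and 38.6 CPM in KO and 43.5, 32.4, 34.9 and 30.1 CPM in WT, all below the DMSO libraries of the same genotype. It fell by 0.77 ± 0.11 in KO and by 0.55 ± 0.11 in WT (edgeR adjusted p = 2.70e-06 and 0.00132). Sox2 held 240, 231, 197 and 201 CPM in KO + DMSO and 169, 167, 139 and 148 CPM in KO + ORY, apart, and fell by 0.48 ± 0.09 (edgeR adjusted p = 0.000160). In WT, Sox2 held 219, 194, 205 and 155 CPM under DMSO and 166, 139, 138 and 143 CPM under ORY. These overlapped through the fourth DMSO library, and the fall by 0.40 ± 0.09 passed (edgeR adjusted p = 0.004).

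Emx2 fell under ORY in KO by 0.70 ± 0.13, from 27.3 to 37.0 CPM down to 24.2, 20.4, 16.6 and 17.9 CPM (edgeR adjusted p = 0.000135). In WT (19.4, 20.4, 15.3 and 22.9 CPM under ORY) it did not pass at -0.19 ± 0.14 (edgeR adjusted p = 0.373), and the difference between the genotypes was -0.51 ± 0.19 (edgeR adjusted p = 0.0663). That difference passed in 3 of 16 refits with a library left out (lowest edgeR adjusted p = 0.0269). Pax6 and Nfib passed in neither genotype in the main fit. In WT, Nfib passed in 2 of 8 refits with a library left out (lowest edgeR adjusted p = 0.0209). Members past the threshold were 6 of 8 in KO, all lower, against 38.7% of genes tested, and 4 of 8 in WT, all lower, against 15.1%. The median log2 change of the 8 was -0.68 in KO and -0.41 in WT, and the medians of all genes tested were 0 and -0.002. The comparison in KO shares its DMSO libraries with KO against WT under DMSO. The comparisons in KO and WT have no libraries in common. Beside them, the 12 markers of dividing cells summed to 203 to 219 CPM under ORY and 186 to 215 CPM under DMSO in KO, and to 207 to 241 and 179 to 197 CPM in WT, with 2 of 10 tested higher and 1 lower in KO and 5 higher in WT. The stem cell and astroglial sum was lower under ORY in KO (13270 to 13450 against 15150 to 15410 CPM, 4 of 12 higher and 4 lower) and higher under ORY in WT (13340 to 13480 against 11630 to 11870 CPM, 6 of 12 higher and 2 lower). The oligodendrocyte lineage sum was 374 to 415 CPM under ORY and 398 to 427 CPM under DMSO in KO, and 283 to 319 and 236 to 248 CPM in WT. The part of these lists in the members' values was not tested.

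Day 6 stood apart from days 5 and 9 in both genotypes. Each day is a separate harvest, and the study renewed the medium every other day. Time in culture, time since the last renewal and a batch of harvest or library cannot be told apart. Sox4 held 19.6, 17.1, 19.4 and 14.4 CPM in WT on day 6, against 8.05, 5.11, 8.74 and 6.19 CPM on day 5 and 7.52, 4.68, 7.72 and 6.25 CPM on day 9. In KO it held 13.2, 15.49, 18.96 and 16.98 CPM on day 6, against 8.37, 5.16, 6.75 and 5.26 CPM and 6.03, 4.90, 5.75 and 7.10 CPM. Every day 6 library was above every library of days 5 and 9, and the rise over day 5 was 1.31 ± 0.19 in WT and 1.42 ± 0.19 in KO on the log2 scale (edgeR adjusted p = 4.20e-07 and 1.06e-07). Sox2 rose by 1.13 ± 0.08 and 1.09 ± 0.08, from 74.9 to 88.2 CPM on day 5 to 174 to 186 CPM on day 6 in WT and from 79.3 to 96.9 CPM to 185 to 199 CPM in KO (edgeR adjusted p = 9.66e-15 and 2.00e-14). Sox21 rose by 0.98 ± 0.12 and 1.03 ± 0.12 (edgeR adjusted p = 3.07e-08 and 3.45e-09), from the values given above.

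Emx2 rose by 0.87 ± 0.15 in WT and 0.66 ± 0.15 in KO (11.0 to 16.3 CPM on day 5 and 23.1 to 26.6 CPM on day 6 in WT). Nfia rose by 0.20 ± 0.06 and 0.36 ± 0.06, and Pax6 by 0.30 ± 0.08 in WT, while in KO it was 0.03 ± 0.08. Nfib alone fell, by 0.62 ± 0.05 in WT (866 to 968 CPM on day 5, 568 to 609 CPM on day 6) and by 0.35 ± 0.05 in KO (757 to 832 and 591 to 662 CPM). Its edgeR adjusted p was 1.40e-13 and 1.35e-07. Sp8 did not pass in either genotype. Fewer members differed between days 9 and 5. Sox2 was higher than on day 5 by 0.31 ± 0.08 and Emx2 by 0.42 ± 0.15 in WT (edgeR adjusted p = 0.00269 and 0.0378), and in KO Pax6 was lower by 0.23 ± 0.08 (edgeR adjusted p = 0.0419). With libraries summed, the calls of Sox2, Emx2 and Pax6 for day 9 and that of Pax6 for day 6 were lost (edgeR adjusted p = 0.0863, 0.235, 0.240 and 0.0691) and the other day 6 calls held. The day 9 call of Emx2 was also lost without WT day 5 replicate 1, 2 or 4 or WT day 9 replicate 1, 3 or 4 (edgeR adjusted p of up to 0.184). That of Pax6 was lost without KO day 5 replicate 2 or 4 or KO day 9 replicate 2, 3 or 4 (edgeR adjusted p of up to 0.169).

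For day 6 against day 5, 6 members rose and 1 fell in WT, 7 of 8 past the threshold against 44.1% of genes tested, and 5 rose and 1 fell in KO, 6 of 8 against 43%. For day 9 against day 5 they were 2 of 8 in WT against 22.7% and 1 of 8 in KO against 24.4%, and the interaction of genotype and this change passed for 0 of 8 by edgeR and by DESeq2 (unadjusted p under 0.05 for 3 of 8) against 9.21%. The median log2 change for day 6 was 0.58 in WT and 0.51 in KO, and those of all genes tested were 0.017 and 0.01. The 12 markers of dividing cells moved with the days. They summed to 612 to 643 CPM on day 5, 232 to 250 CPM on day 6 and 463 to 491 CPM on day 9 in WT, and to 590 to 623, 191 to 200 and 528 to 619 CPM in KO. For day 6 against day 5, 11 of 12 were lower in WT and 12 of 12 in KO. Stem cell and astroglial markers summed to 20300 to 21000 CPM on day 5 and 14710 to 15030 CPM on day 6 in WT. The part of either in the members' values was not tested.

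**Figure D3:**
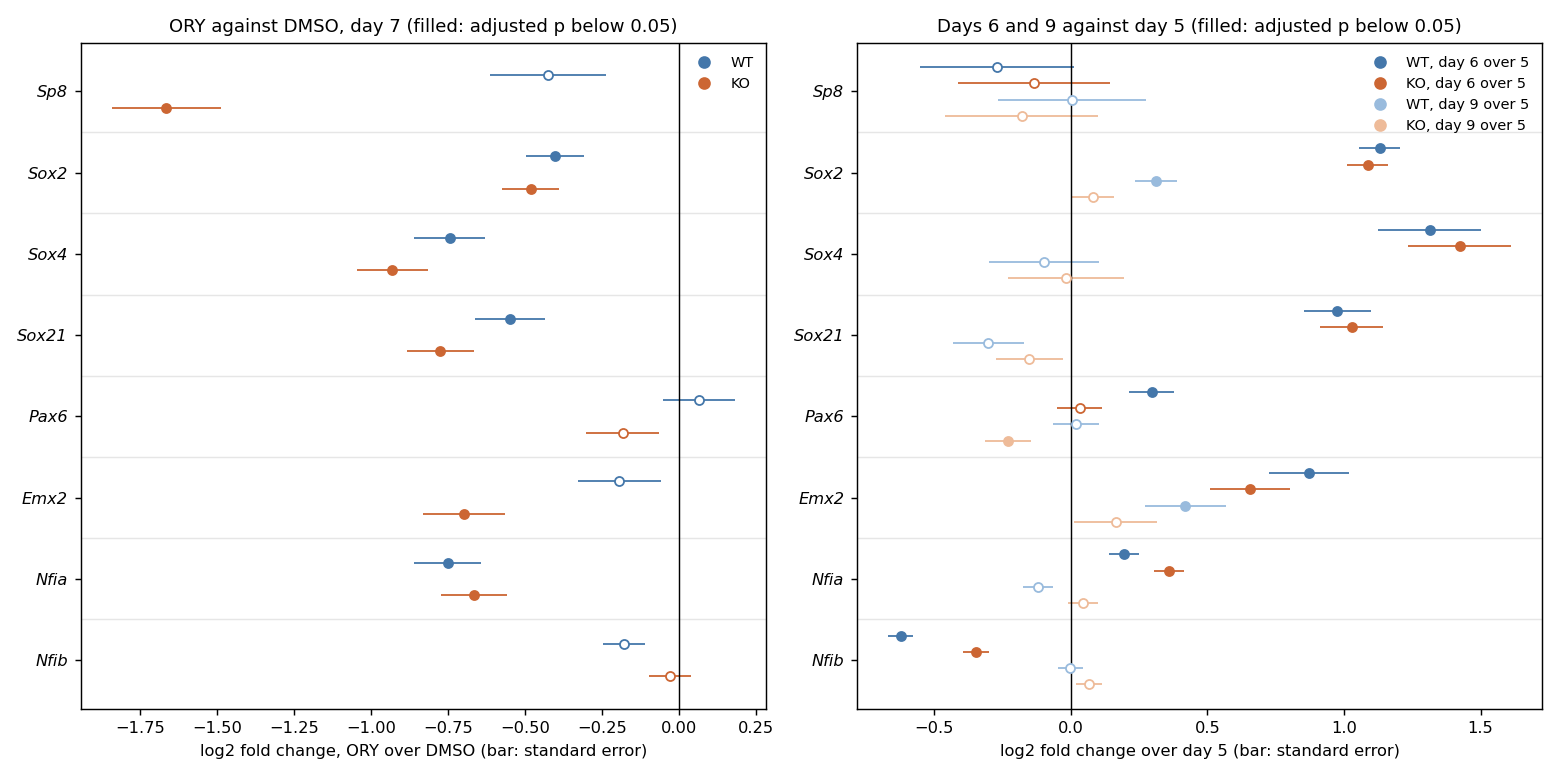
Left, log2 fold change of ORY over DMSO at day 7 in WT (blue) and KO (orange). Right, log2 fold change of days 6 and 9 over day 5, with paler points for day 9. Bars are standard errors and filled points had an adjusted p below 0.05. Sp8 at -1.66 in KO and -0.42 in WT shows the only interaction past the threshold among the 8 in the main fit. Sox2, Sox4 and Sox21 lie at 0.98 to 1.42 on day 6 in both genotypes while Nfib lies below 0.

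Another 56 factors of neural stem cells and neurogenesis were listed, also with earlier results of these data known, and 36 to 38 were tested per table. Under DMSO, 14 were higher and 4 lower in KO of 37 tested, where 16.9% of all genes tested were higher and 19.1% lower (median log2 difference 0.245 against -0.015 over all genes). Foxo3, which preserves stem cell quiescence, was higher by 0.61 ± 0.08, Hopx, a marker of quiescent radial glia-like cells, by 1.142 ± 0.152, Gli3, a transcriptional effector of Hedgehog signalling, by 0.99 ± 0.16 and Sox9 by 0.49 ± 0.07, while Tcf12, an E protein, fell by 0.41 ± 0.07. Their edgeR adjusted p was at most 4.74e-05. Under ORY 0 of 37 passed between the genotypes in the edgeR fit, and 8 of 37 had an unadjusted p under 0.05. ORY itself lowered 18 and raised 3 of 37 in KO (Sox9 by -0.70, Nr2f1 by -0.58, Zeb1 by -0.44), where it lowered 18.3% and raised 20.3% of all genes, and lowered 10 and raised 2 in WT (Pou3f2 by -0.54, Sox9 by -0.39, Zeb1 by -0.39), where it lowered 6.91% and raised 8.16% of all genes.

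The interaction of genotype and ORY passed for 10 of 37 others (3 positive, 7 negative) against 17.9% of all genes (10% positive, 7.86% negative). Among them Hopx (-1.03 ± 0.22), Gli3 (-0.98 ± 0.22) and Foxo3 (-0.62 ± 0.11) had the sign of Sp8. Tcf12 (0.66 ± 0.10), Klf9 (0.54 ± 0.17) and Sox6 (0.45 ± 0.13) had the opposite sign, and the Klf9 call was lost without WT + DMSO replicate 2 or 4, WT + ORY replicate 2 or 3, KO + DMSO replicate 4 or KO + ORY replicate 1 or 4 (edgeR adjusted p of up to 0.0813). On days 4, 5, 6 and 9, 0, 10, 3 and 4 of the others passed between the genotypes by edgeR, against 1.59%, 15%, 13.1% and 11.8% of all genes (6 of 36 had an unadjusted p under 0.05 on day 4). Neurod1 passed on day 9 at 1 to 15 counts per KO library and 0 to 2 per WT library, and did not pass without KO replicate 4, WT replicate 1 or WT replicate 4 (edgeR adjusted p = 0.221, 0.0629 and 0.0642). On day 5, Sox5 (-0.49) and Tcf12 (-0.36) were lower in KO, and Lhx2 (0.50) and Foxo3 (0.32) were higher but not after removal of the GC and length trend (edgeR adjusted p = 0.131 and 0.611). With libraries summed, calls over all genes on day 5 fell from 1880 to 297.

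Among the days, Hes1, an effector of Notch and BMP signalling, had day 6 log2 changes of -2.29 ± 0.17 in WT and -2.30 ± 0.17 in KO, and Olig2 of -1.06 ± 0.14 and -1.18 ± 0.14, while Nr2f1, Pou3f2 and Sox9 rose in both genotypes (1.23, 0.605 and 0.49 in WT, 1.127, 1.116 and 0.687 in KO). In all, 15 of 38 others were higher and 13 lower on day 6 in WT, against 21.5% and 22.6% of all genes, and 16 higher and 10 lower in KO, against 21.5% and 21.5%. Over the 24 libraries of days 5, 6 and 9, the members varied in common to different degrees. Sox2, Sox4 and Sox21 had pairwise Pearson r of 0.82 to 0.89. Nfia and Emx2 had r of 0.61 to 0.86 with these 3, and Pax6 of 0.62 to 0.64. Nfib ran against all of them (-0.89 to -0.68), and Sp8 stayed between -0.205 and 0.186 with every other member. These points share libraries and differ mostly by day, so the r values are a description. By the same measure, the genes most like each member among the better expressed (average log2 CPM of 3 or more) were Myo10 for Sox2 (r = 0.973), Rhoa for Sox21 (0.964), Pla2g7 for Sox4 (0.938), Mdga2 for Nfib (0.971), Klf6 for Nfia (0.917), Snx5 for Emx2 (0.897), Ssu72 for Pax6 (0.869) and Gtf2i for Sp8 (0.645).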

How the data were processed

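RNA of cultured cells was made into 48 SMART-seq2 libraries, and the authors trimmed the reads (Trimmomatic 0.32, after bcl2fastq 2.17.1.14) and aligned them to GRCm38 with STAR 2.5.2a, whose gene counts of uniquely mapped reads were deposited as 3 tables (day 4, days 5, 6 and 9, and day 7). The deposited values are whole-number read counts, not normalised. Groups were taken from the sample labels. Of 39017 gene IDs, 37693 had a GENCODE vM21 symbol, and unmatched IDs held at most 0.202% of counts.

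The 3 tables were fitted separately, each with all of its groups, in edgeR 4.0.16 (limma 3.58.1, R 4.3.3). The quasi-likelihood test (F statistic, legacy setting) followed filterByExpr (minimum count 10, minimum total 15) and TMM scaling. This left 11430, 12549 and 11952 genes, over which p-values were adjusted by Benjamini-Hochberg, and an adjusted p below 0.05 passed. CPM use the TMM-scaled library sizes, and r values use log2 CPM with a prior count of 2. No test was made between tables. The members and gene lists were chosen with earlier results of these data known. The other factors named per comparison were the 6 with the smallest p among those that passed, and some of these are not reported here.

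Alternatives were DESeq2 1.42.0, RLE or library size scaling, no filter or a stricter one, the current form of the test, the replicate number as a block, removal of the GC and length trend with and without the block, only the groups compared, each library left out, and, for days 5, 6 and 9, libraries 1 and 3 and libraries 2 and 4 summed. On simulated data, the edgeR fit recovered 92.8% of changes of log2 size 1 for KO against WT on day 4 (11274 genes), 90.8% on day 9 (12230 genes) and 93% under DMSO (11724 genes), and 46.5%, 61% and 57.6% of changes of size 0.5. False calls were 6, 7 and 9. Each library was drawn independently with 1 dispersion for all genes, without close library pairs or an effect of replicate number. The shares hold for that setting only.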

Additional observations from a re-analysis of the deposited data

Results flagged for a closer look

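Each member's level was examined in the 12 groups of 4 libraries for a library far from the other 3 (96 sets of values in all, of which chance gives about 1 in 20). Sox4 in WT on day 4 was 19.1 CPM in replicate 4 and 20.1 to 20.2 CPM in the others. Sox21 in KO on day 9 was 23.4 CPM in replicate 3 and 19.3 CPM in the others. Nfia in WT on day 5 was 619 CPM in replicate 1 and 678 to 680 CPM in the others, and Nfib in WT on day 6 was 568 CPM in replicate 2 and 606 to 609 CPM in the others.

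The response to ORY differed between the genotypes, by the edgeR interaction test, for Sp8 (-1.24 on the log2 scale), Hopx (-1.03), Gli3 (-0.98), Foxo3 (-0.62), Tcf12 (0.655), Klf9 (0.54) and Sox6 (0.45). The change from day 5 to day 9 differed between the genotypes for Tcf12 (0.33), Lhx2 (-0.54) and Pou3f3 (-0.595). Positive values mean a higher change in KO. With libraries 1 and 3 and libraries 2 and 4 summed, calls of this time interaction over all genes fell from 1156 to 40. Summed values of Tcf12, Lhx2 and Pou3f3 are not given here.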

How the results depend on the processing

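Of 692 refits of the 37 member calls, 643 kept the call, 49 lost it and 0 reversed it, and 26 calls held in every alternative run for them, those of Sp8 among them. Members past the threshold, of 8, were 2 on day 4 and 0 to 1 with any library left out. They were 2 on day 5 and 1 with the GC and length trend removed, with or without the replicate block, 0 with libraries summed, and 1 to 2 with a library left out. On day 6 they were 1, and 0 with libraries summed. On day 9 they were 2, and 1 without the filter, with the GC trend removed or with only the groups compared, 0 summed and 1 to 2 with a library left out. For day 9 against day 5 they were 2 in WT (1 without the filter, 4 with the GC trend removed, 5 with the block as well, 0 summed, 1 to 2 with a library left out). In KO they were 1 (0 without the filter, with only the groups compared or summed, 2 with GC and block, 0 to 1 with a library left out), and the interaction went from 0 to 1 without WT day 9 replicate 3. Under DMSO they were 3, and 5 with the replicate block and 6 with the GC trend removed, with or without it. The interaction with ORY had 1, and 2 in the current form of the test, 3 with the block, with the GC trend removed or with both, and 1 to 2 with a library left out.

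Same-numbered libraries of the groups compared were weakly correlated (-0.0258 to 0.213). A library was closest to its own number in 2 of 8 cases for KO against WT on day 4. This held in 7 of 8 cases on day 6, 7 of 8 under DMSO and 28 of 48 for the interaction with ORY. Whether the number marks a shared effect was not tested. The main fits hold no term for it, and the replicate block was kept as an alternative.

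Signs turned only for values that had not passed. Nfia for day 9 against day 5 in KO was 0.05, and -0.031 by library size, -0.123 with the GC trend removed and -0.125 with the block as well. Nfib there was 0.07, and -0.010, -0.033 and -0.032, and Sox21 was -0.15, and 0.084 and 0.076 under the last pair of settings. Nfib on day 6 was 0.06, and -0.029 and -0.030 under them. Nfib for day 9 against day 5 in WT was -0.001, and 0.004 without the filter, 0.001 with the stricter one and -0.035 to 0.015 with a library left out.

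Over all genes, calls moved by more than 1.5 times on day 4 (182, 90 to 355), for KO against WT under ORY (138, 58 to 839), on days 5, 6 and 9 (1880, 1649 and 1479, down to 297, 217 and 141 summed), for day 9 against day 5 (2848 in WT and 3064 in KO, 981 and 1256 summed), for its interaction (1156, 40 summed, 1770 with the block) and for ORY in WT (1801, 2740 with the block). Sp8 and Sox4 are limited by their counts on days 5, 6 and 9. The cause of these shifts was not tested.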
